A study of Homo sapiens with 6 samples.

Results

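BMAL1, BMAL2, CLOCK and NPAS2 encode the activators of the circadian clock, and their RNA was followed in a human thyroid cell line. They were chosen by gene symbol, as the BMAL1 gene, its paralog and their dimer partners, and all 4 were found among the 22354 loci of the count table. All 4 also passed the filter on low counts, which kept 14860 loci.

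The proteins of these genes share a basic helix-loop-helix domain and PAS domains, and they act as pairs. BMAL1 or its paralog BMAL2 joins CLOCK or the closely related NPAS2, and the pair binds E-box sequences and activates, among others, the PER and CRY genes, whose products repress the pair, and NR1D1 and NR1D2, which encode the receptors REV-ERBα and REV-ERBβ. These receptors repress BMAL1 through the response elements that they share with the activating ROR receptors, which closes a further loop.

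RNA of Htoris-3.1 cells (HTori-3.1 in the study), labelled as a normal human thyroid line, was sequenced in 6 libraries. The 3 control libraries have the genotype wild type, and the other 3 are labelled BMAL1 knock out, from cells infected with lentivirus for Cas9 and an sgRNA to BMAL1, selected with puromycin and taken as single clones. How many clones the 3 libraries stand for, and whether the control cells went through the same infection and selection, is not given in the sources used here. Both groups had received etoposide at 2 μM, which inhibits topoisomerase II and breaks DNA, for 12 h by the treatment field and 24 h by the protocol, and no untreated group was analysed here. Total counts were 26893063, 27029060 and 28513703 in the control libraries, and 43148059, 29860233 and 43563391 in those labelled BMAL1 knockout, so that every library of the latter group was deeper. Knockout replicate 1 stood apart from the other libraries of its group over the whole table. The mean chi-square per gene between 2 libraries, which grows with depth, was 31.6 and 46.5 between it and knockout replicates 2 and 3, against 7.24 between these and 5.36 to 14.5 between control libraries. Nothing states that replicates were separate cultures, so the p-values measure the spread between these libraries, which may be technical.

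Markers of the thyroid follicular cell were only in part present. PAX8, a transcription factor of the thyroid lineage, stood at 133 ± 15.4 CPM (counts scaled by TMM to a common library total; SD, n = 3) in the control libraries. The lineage factors FOXE1 and HHEX stood there at 48.0 ± 0.717 and 10.0 ± 0.958 CPM (SD, n = 3). Reads for NKX2-1, DUOXA2 and IYD were at 0 in all 6 libraries, and means of TG, TSHR and SLC5A5 were at most 0.264 CPM in either group, so these 6 markers were at or near 0. Of the epithelial markers, the keratins KRT8, KRT18 and KRT7 were abundant, at 1410, 852 and 710 CPM in the control mean. KRT19 stood there at 7.67 CPM, and EPCAM and CDH1 were near 0, at 0.125 and 0.233 CPM.

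BMAL1 (ENSG00000133794.20) is the gene that the sgRNA was directed at. It lies on the forward strand of chromosome 11 of hg38, from 13276652 to 13387266, and has 6934 bases in the union of its exons. BMAL1 had 304, 326 and 409 reads in control replicates 1 to 3, and 764, 603 and 860 reads in replicates 1 to 3 labelled BMAL1 knockout. After scaling these were 11.3, 12.2 and 14.6 CPM in the control libraries, and 17.9, 19.8 and 19.4 CPM in those labelled BMAL1 knockout. The 3 libraries labelled knockout were the 3 highest and the groups did not overlap. The amount of BMAL1 RNA was thus higher, not lower, by label. By the protocol, the clones were checked for loss of the protein by western blot, which was not analysed here. Among the genes that the pair activates, NR1D1, NR1D2, PER3 and PER1 had log2 fold changes of -1.25, -0.78, -0.49 and -0.22 by label. PER2, CRY1 and CRY2 went the other way, at 0.33, 0.18 and 0.14. Only NR1D1, NR1D2 and PER3 of these passed the test across all genes (Benjamini-Hochberg adjusted p = 0.00146, 0.00233 and 0.0168, quasi-likelihood test of edgeR). Counts per gene show neither an edit in the transcript nor the protein, and whether labels or columns were exchanged was not tested. Directions are therefore given by label, as the libraries labelled BMAL1 knockout relative to the control libraries. The level of BMAL1 was 1.5 times as high (95% interval 1.26 to 1.77), or 0.58 ± 0.11 on the log2 scale (fold change ± standard error, Benjamini-Hochberg adjusted p = 0.0204 over all genes tested, quasi-likelihood test of edgeR). Of all genes tested, 95.8% had a lower log2 fold change than BMAL1. In such bulk samples more expressing cells and more RNA per cell cannot be told apart for BMAL1, nor fewer cells and less RNA per cell for a gene that is lower.

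BMAL1 was the only one of the 4 genes past an adjusted p of 0.05 in edgeR, where 2.51% of all genes tested were past it, 1.08% higher and 1.43% lower. The call did not hold in every fit with a library left out. In edgeR, the Benjamini-Hochberg adjusted p of BMAL1 was 0.0896 without control replicate 1, 0.113 without control replicate 2, 0.0749 without knockout replicate 2 and 0.0598 without knockout replicate 3. Over the 15 alternatives it ranged from 0.000866, in DESeq2, to 0.113, with 0.0111 the lowest in edgeR, where each library's trend with GC content was removed. Without knockout replicate 1, which stood apart, the log2 fold changes were 0.62 for BMAL1 (adjusted p = 0.0168 in edgeR), -0.06 for BMAL2, -0.12 for CLOCK and -0.26 for NPAS2. The fold change lay between 0.50 and 0.70 on the log2 scale in the fits that each left out a library. At equal depth, with reads drawn down to the smallest total, it was 0.60.

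BMAL2 (ENSG00000029153.15), the paralog of BMAL1, lies on the forward strand of chromosome 12 from 27332836 to 27425289. It had 2711, 2732 and 3239 reads in the control libraries and 4785, 3186 and 4447 reads in those labelled BMAL1 knockout. These were 101, 102 and 116 CPM in the control libraries, and 112, 104 and 100 CPM in those labelled BMAL1 knockout. Control replicate 3 was the highest and knockout replicate 3 the lowest, and the groups overlapped. The log2 fold change of BMAL2 was -0.01, with a 95% interval from -0.19 to 0.17 (Benjamini-Hochberg adjusted p = 0.971, quasi-likelihood test of edgeR). Its sign turned with library size as the only scaling, where it was 0.02, so no direction is given for BMAL2. In fold terms the interval ran from 0.878 to 1.12.

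CLOCK (ENSG00000134852.15), the usual partner of BMAL1, lies on the reverse strand of chromosome 4 from 55427903 to 55546909. Reads of CLOCK numbered 2950, 3047 and 3575 in the control libraries and 4629, 3196 and 4909 in those labelled BMAL1 knockout. These were 110, 114 and 128 CPM in the control libraries, against 108, 105 and 111 CPM in those labelled BMAL1 knockout. Knockout replicate 3 lay just above control replicate 1, so the groups overlapped, and control replicate 3 stood highest. The log2 fold change of CLOCK was -0.12 (95% interval -0.29 to 0.05, Benjamini-Hochberg adjusted p = 0.488, quasi-likelihood test of edgeR). It was closer to 0 without control replicate 3, at -0.05, and was -0.19 when each library's trend with GC content was removed.

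NPAS2 (ENSG00000170485.17), which can take the place of CLOCK in the pair, lies on the forward strand of chromosome 2 from 100820139 to 100996829. It had 437, 378 and 372 reads in the control libraries and 493, 360 and 555 reads in those labelled BMAL1 knockout. These were 16.3, 14.1 and 13.3 CPM in the control libraries, against 11.5, 11.8 and 12.5 CPM in those labelled BMAL1 knockout. The 3 libraries labelled knockout were the 3 lowest, by a margin smaller than the distance between control replicates 1 and 2. The log2 fold change of NPAS2 was -0.28 (95% interval -0.53 to -0.04), and it did not pass the test across all genes (unadjusted p = 0.0248, Benjamini-Hochberg adjusted p = 0.214, quasi-likelihood test of edgeR). Without control replicate 1, the library with the most NPAS2, the log2 fold change was -0.20.

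**Figure D1:**
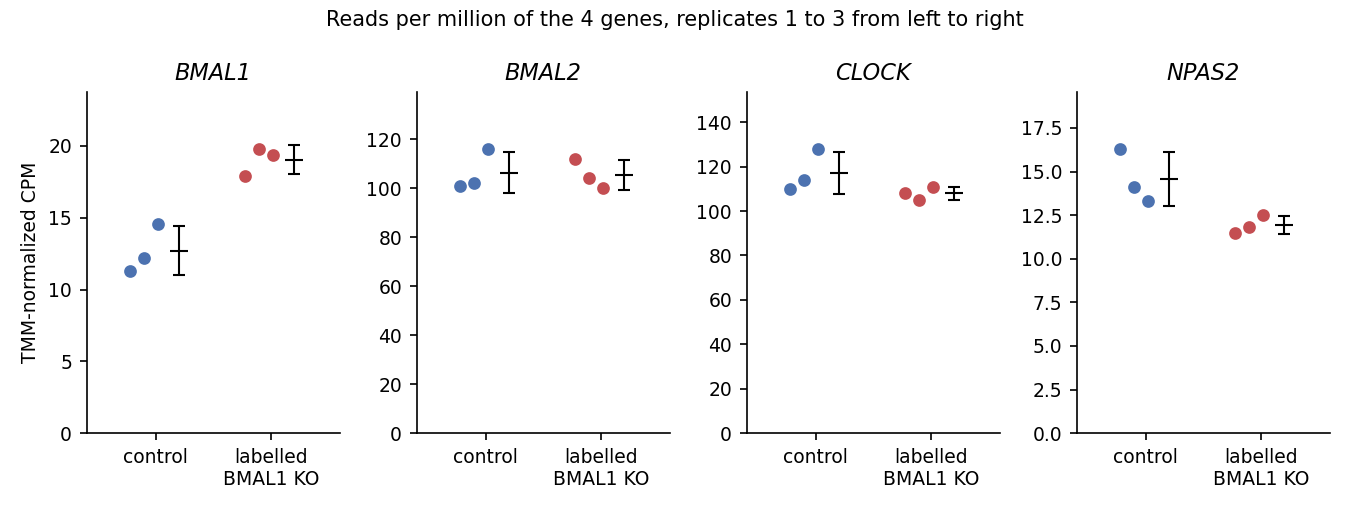
TMM-normalized CPM of BMAL1, BMAL2, CLOCK and NPAS2 in the 3 control libraries (blue) and the 3 labelled BMAL1 knockout (red), replicates 1 to 3 from left to right, with the mean and SD of each group in black and axes that start at 0. BMAL1 sits between 11.3 and 14.6 CPM in the control libraries and between 17.9 and 19.8 CPM in the others, NPAS2 is lower in all 3 libraries labelled knockout, and BMAL2 and CLOCK overlap.

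For BMAL1 and NPAS2, 2 of the 4 genes, CPM did not overlap between the groups, which also held for 23.3% of all genes tested. With 3 libraries a group, a two-sided exact permutation test of the means goes no lower than p = 0.1, the value that both genes had. The same exact permutation test gave p = 0.2 for CLOCK and p = 0.8 for BMAL2. The CPM of these 4 genes varied more between the control replicates than between those labelled knockout, which did not hold over the whole table, where knockout replicate 1 stood apart. The coefficient of variation in the control libraries was 13.4% for BMAL1, 7.65% for BMAL2, 7.92% for CLOCK and 10.6% for NPAS2, against 5.19%, 5.65%, 2.85% and 4.25% in the libraries labelled BMAL1 knockout.

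Overlapping genes bear on how exact these counts are, since whether the counting used strand is not given in the sources used here. An antisense lncRNA shares 421 exon bases with BMAL1, BMAL2-AS1 shares 73 with BMAL2, and antisense lncRNAs share 748 and 400 with NPAS2. None of these has its own entry in the count table, so reads from them cannot be told apart from those of the 4 genes. CLOCK shares 76 exon bases with TMEM165 on the opposite strand, whose log2 fold change was -0.10 (Benjamini-Hochberg adjusted p = 0.603, quasi-likelihood test of edgeR). Transcripts of the 4 genes shared 0 stretches of 50 bases with each other on either strand, so reads of that length without mismatches belong to a single one of the paralogs.

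Levels were next set beside each other per length, as RPKM (CPM per kilobase of the union of exons). In the control libraries BMAL2 was the most abundant, at 15.2 ± 1.16 RPKM, followed by CLOCK at 10.2 ± 0.805, BMAL1 at 1.83 ± 0.245 and NPAS2 at 1.17 ± 0.124 RPKM (SD, n = 3 each). In the libraries labelled BMAL1 knockout the order was the same, with 15.1 ± 0.852, 9.36 ± 0.267, 2.74 ± 0.142 and 0.956 ± 0.0406 RPKM (SD, n = 3 each). In each group, each gene's lowest library was above the highest library of the next gene in that order. Among the 13578 tested genes with a length, BMAL2 stood at percentile 78.1, CLOCK at 67.2, BMAL1 at 32.7 and NPAS2 at 22.1 of the mean level. BMAL2 RNA was 8.31 times as abundant as BMAL1 RNA per length in the control libraries, and CLOCK RNA 8.72 times as abundant as NPAS2 RNA. With the length of the longest transcript in place of the union of exons these ratios were 4.68 and 6.12, and the order of the 4 genes was unchanged.

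BMAL1 made up 10.2%, 10.8% and 11.3% of the summed RPKM of BMAL1 and BMAL2 in the control libraries, and 13.9%, 16.0% and 16.3% in those labelled BMAL1 knockout. All 3 libraries labelled knockout had the larger share, and BMAL2 was the more abundant paralog in all 6. NPAS2 made up 12.0%, 10.3% and 8.76% of the summed RPKM of NPAS2 and CLOCK in the control libraries, and 8.94%, 9.41% and 9.44% in those labelled knockout, which overlapped. By the longest transcript the BMAL1 share was larger, at 17.6% in the control mean and 24.4% in the mean labelled knockout in place of 10.7% and 15.4%, and again all 3 libraries labelled knockout had the larger share. RPKM of the BMAL genes together was 1.48, 1.49 and 1.54 times that of CLOCK and NPAS2 together in the control libraries, and 1.80, 1.77 and 1.62 times in those labelled knockout (two-sided exact permutation test, p = 0.1).

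Ratios of reads within a library do not depend on how libraries are scaled, and 4 were compared between the groups. The log2 ratio of BMAL1 to BMAL2 reads was -3.16, -3.07 and -2.99 in the control libraries and -2.65, -2.40 and -2.37 in those labelled BMAL1 knockout. All 3 of the latter were higher, by 0.60 in the mean, and the difference reached the smallest p this design allows (two-sided exact permutation test, p = 0.1, 0.133 after Benjamini-Hochberg adjustment over the 4 ratios). The log2 ratio of BMAL1 to CLOCK was -3.28, -3.22 and -3.13 in the control libraries and -2.60, -2.41 and -2.51 in the others. Relative to its partner, BMAL1 was higher in all 3 libraries labelled knockout, by 0.70 on the log2 scale (two-sided exact permutation test, p = 0.1, adjusted 0.133). The log2 ratio of CLOCK to NPAS2 was 2.76, 3.01 and 3.26 in the control libraries and 3.23, 3.15 and 3.14 in those labelled knockout. These overlapped, and the difference of 0.17 was smaller than the SD of 0.25 between the control libraries (two-sided exact permutation test, p = 0.4, adjusted 0.4). The difference was 0.04 without control replicate 1 and 0.29 without control replicate 3.

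The fourth ratio set BMAL1 against NR1D1, whose product represses it. NR1D1 had 208, 190 and 192 reads in the control libraries and 131, 99 and 126 in those labelled BMAL1 knockout. The log2 ratio of BMAL1 to NR1D1 was 0.55, 0.78 and 1.09 in the control libraries and 2.54, 2.61 and 2.77 in the others. The groups lay further apart here than in any of the other 3 ratios, by 1.83 on the log2 scale or 3.57 times (two-sided exact permutation test, p = 0.1, adjusted 0.133). This distance joins the higher BMAL1 and the lower NR1D1 given above and is not a separate result. The ratios were not tested against each other. THRA overlaps NR1D1 from the other strand, and the Benjamini-Hochberg adjusted p of THRA in edgeR was 0.993.

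Promoter sequence was read for the 4 genes and for the clock genes below that passed the test, to show which of the loop's sequence elements stand at their starts. RefSeq windows on GRCh38.p14, from 250 bases before to 50 after a start site, were found for all 4 genes, with 2 start sites each for BMAL1 and CLOCK. They were searched on both strands for the E-box CACGTG, the variant CACGTT, the ROR response element to which the REV-ERB receptors also bind, and its core AGGTCA, which can lie within it. Of all 35116 windows, 7.26% hold CACGTG, 5.34% CACGTT, 0.316% the ROR response element and 13.8% AGGTCA. The window at 1 of the 2 BMAL1 starts holds a ROR response element that begins at base 27 after the start, at chr11:13277807-13277835 on the forward strand. The window at 1 of the 2 CLOCK starts holds another, at chr4:55546130-55546158, and CACGTT, at chr4:55546105-55546128, the gene being on the reverse strand of the chromosome. The sequences run 5′ to 3′ on the strand of the gene and capitals mark the match, which for the ROR response element of CLOCK reads on the opposite strand. Coordinates span the whole printed stretch with its flanking bases in lower case, and distances from a start refer to the match.
BMAL1 ROR element: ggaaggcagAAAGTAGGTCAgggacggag
CLOCK ROR element: taggccttgTGACCCACTTTattcctgtc
CLOCK CACGTT: ccactcgggCACGTTtggagcagc
The windows of BMAL2 and NPAS2 hold 0 of these motifs, and 0 of the 4 genes have CACGTG in these windows. A match describes the letters of a window, and binding was not measured.

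Outside the 4 genes, 33 further clock genes were listed, of which 31 were tested and 4 were lower at an adjusted p under 0.05 in edgeR, against 1.43% of all genes, while 0 were higher (0 higher and 4 lower in DESeq2, against 2.17% and 2.71% of all genes, and 0 higher and 4 lower in limma-voom, against 0.686% and 1.03%). At an unadjusted p under 0.05 in edgeR, 4 of the 31 were higher and 6 lower, against 9.08% and 7.78% of all genes tested. Their median log2 fold change was -0.06, beside 0.01 for all genes tested. The genes called lower were the REV-ERB genes NR1D1 and NR1D2, PER3, a repressor of the pair, and TEF, an output factor that binds D-boxes. The ROR gene RORA, which encodes an activator of BMAL1, had a log2 fold change of -0.18 (Benjamini-Hochberg adjusted p = 0.582, quasi-likelihood test of edgeR), and RORB was below the filter.

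NR1D1 stood at 7.75, 7.11 and 6.86 CPM in the control libraries and at 3.07, 3.24 and 2.84 CPM in those labelled BMAL1 knockout, where BMAL1 was higher. NR1D2 stood at 64.9, 61.8 and 77.8 CPM against 42.0, 37.5 and 39.4 CPM. Both were thus lower in all 3 libraries labelled knockout, with log2 fold changes of -1.25 and -0.78 (Benjamini-Hochberg adjusted p = 0.00146 and 0.00233, quasi-likelihood test of edgeR). PER3 had a log2 fold change of -0.49 and TEF of -0.51, with an adjusted p of 0.0168 and 0.0368 in the same edgeR test, by the Benjamini-Hochberg procedure. The call of PER3 was lost without control replicate 1, 2 or 3 (adjusted p = 0.0763, 0.0730 and 0.0596 in edgeR) and without knockout replicate 2 (0.0867), while its log2 fold change lay between -0.55 and -0.46 over all 15 alternatives. The call of TEF was lost without control replicate 1, 2 or 3 (adjusted p = 0.0688, 0.143 and 0.101 in edgeR) and without knockout replicate 2 or 3 (0.135 and 0.0845). It was also lost with library size as the only scaling (0.0503) and at equal depth (0.0574), while its log2 fold change lay between -0.56 and -0.45 over all 15 alternatives. NR1D2 overlaps NKIRAS1 on the opposite strand, with an adjusted p of 0.787, and PER3 overlaps UTS2, which had 0 reads.

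Among the other loop genes, PER1, PER2, CRY1 and CRY2 had log2 fold changes of -0.22, 0.33, 0.18 and 0.14, and BHLHE40 and BHLHE41, whose products compete for E-boxes, had 0.11 and -0.35. DBP, an E-box target with few reads, was at 0.03, and NFIL3, which is repressed by the REV-ERB receptors, at 0.28. The lowest adjusted p of these 8 genes was 0.172, for NFIL3 (edgeR, adjusted by the Benjamini-Hochberg procedure). NFIL3 and PER2 lay higher and BHLHE41 lower in all 3 libraries labelled knockout, without overlap, as did 23.3% of all genes tested in 1 direction or the other. DBP overlaps SPHK2 and BHLHE41 overlaps SSPN on the opposite strand, so their counts are less certain. The 8 kinases and ubiquitin ligases that modify clock proteins had a median of -0.09, and the 8 coactivators and chromatin factors a median of -0.03, and 0 of these 16 were called by edgeR, DESeq2 or limma-voom (2 higher and 1 lower at an unadjusted p under 0.05 in edgeR, against 9.08% and 7.78% of all genes).

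The promoter windows of NR1D2 and TEF hold E-boxes CACGTG, at 1 of 2 NR1D2 starts and at both TEF starts, and those of PER3 and NR1D1 do not. The pair in the NR1D2 window lies 155 and 105 bases before the start, at chr3:23945957-23945980 and chr3:23946007-23946030 on the forward strand. The capitals again mark the match, to which the distances refer, and the coordinates again include the flanking bases.
NR1D2 first E-box: gggcggggaCACGTGaggccgctc
NR1D2 second E-box: ccgcagggaCACGTGggggcgggg
The same NR1D2 window holds a ROR response element between them, and the NR1D1 window holds the variant CACGTT on the opposite strand.

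**Figure D2:**
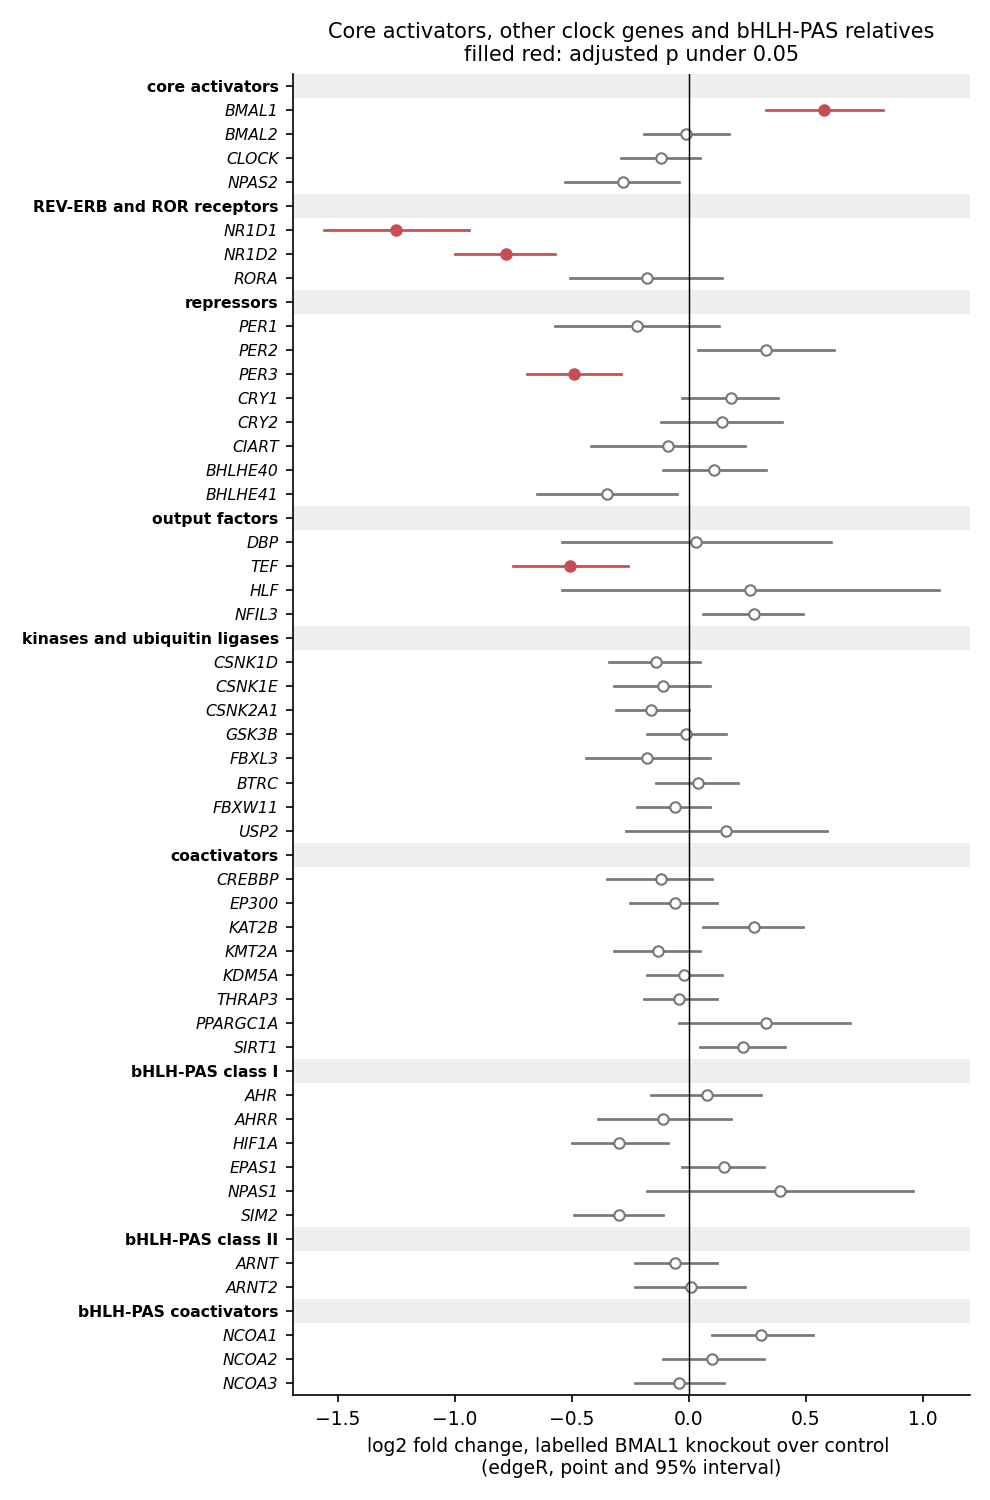
Log2 fold change of the libraries labelled BMAL1 knockout over control (edgeR, points with 95% intervals) for the 4 core activators, 31 other clock genes and 11 bHLH-PAS relatives. Red marks an adjusted p under 0.05, reached by BMAL1 at 0.58 in 1 direction and by NR1D1, NR1D2, PER3 and TEF, at -1.25 to -0.49, in the other.

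Relatives of the 4 genes were followed since class II proteins of the family, ARNT and ARNT2, serve other partners as BMAL1 serves CLOCK. Of 15 listed bHLH-PAS relatives and coactivators, 11 were tested and 0 were called by edgeR, DESeq2 or limma-voom, with 1 higher and 2 lower at an unadjusted p under 0.05 in edgeR, against 9.08% and 7.78% of all genes. Their median log2 fold change was 0.01, the same as for all genes tested. ARNT was at -0.06 and ARNT2 at 0.01 on the log2 scale. Per length, BMAL2 was more abundant than ARNT (15.2 against 9.04 RPKM in the control mean). BMAL1 was close to ARNT2 only in the control mean by the union of exons (1.83 ± 0.245 and 1.62 ± 0.0957 RPKM, SD, n = 3 each). In the mean labelled knockout, BMAL1 stood at 2.74 and ARNT2 at 1.63 RPKM. By the longest transcript they stood at 3.29 and 1.87 RPKM in the control mean. The oxygen-regulated HIF1A was the most abundant of the relatives, at 91.6 RPKM, with a log2 fold change of -0.30, and its relative EPAS1 was at 0.15. The dioxin receptor AHR was at 0.08. Without knockout replicate 1, edgeR with Benjamini-Hochberg adjustment called 3 of the relatives, HIF1A (log2 fold change -0.36, adjusted p = 0.0454), EPAS1 (0.22, 0.0474) and the coactivator gene NCOA1 (0.39, 0.0335; named after its values were seen), where 1.95% of all genes were called higher and 2.26% lower. With each library's trend with GC content removed, edgeR called HIF1A (log2 fold change -0.38, adjusted p = 0.00428) and SIM2 (-0.30, 0.037; also named after its values were seen), which HLCS overlaps on the opposite strand; 2.75% of all genes were then called higher and 5.02% lower. Over their 15 alternatives the adjusted p ranged from 0.00428 to 0.359 for HIF1A, from 0.037 to 0.274 for SIM2, from 0.0474 to 0.669 for EPAS1 and from 0.0335 to 0.347 for NCOA1.

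Neighbours on the chromosome were compared to see whether the region of each gene was shifted with it. Within 1 Mb of the 4 genes, 42 other genes were tested, and 0 were called by edgeR or limma-voom. DESeq2 called 1, PPFIBP1 near BMAL2 (log2 fold change -0.27, adjusted p = 0.0302, among alternatives from 0.0121 to 0.215), where 2.71% of all genes were called lower. At an unadjusted p under 0.05 in edgeR 0 were higher and 6 lower, against 9.08% and 7.78% of all genes. With the GC trend removed, where edgeR called 5.02% of all genes lower in place of 1.43%, it called 5 of the 42 neighbours lower, PPFIBP1 (adjusted p = 0.0121) and ITPR2 near BMAL2, and AFF3, RNF149 and MAP4K4 near NPAS2 (the last 4 named after their values were seen). The 7 neighbours of BMAL1 had a median log2 fold change of 0.01, against 0.58 for BMAL1. Nearest to it were BTBD10, 0.742 kb beyond its end, at 0.14, and TEAD1 on the other side at 0.04. The 12 neighbours of BMAL2 had a median of 0.02, and the nearest on each side were STK38L at 0.24 and PPFIBP1 at -0.27. Next to CLOCK, NMU and ENSG00000288695 were at -0.01 and -0.24, with 5.18 and 0.557 CPM in the control mean, and the 14 neighbours of CLOCK were 7 positive and 7 negative.

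Around NPAS2 the tested genes lay mostly below 0. Of its 9 neighbours, 7 had a negative log2 fold change, with a median of -0.13, and 6 did not overlap between the groups, 5 of them lower and LONRF2 higher (0.26; named after its values were seen), beside 23.3% of all genes tested in either direction. The nearest, PDCL3 and RPL31, were at -0.03 and 0.16, and NPAS2 itself at -0.28. Whether the lower NPAS2 belongs to a shift of its region was not tested.

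As a description of their patterns, the genes most like each of the 4 were sought by Pearson's r of log2 CPM over the 6 libraries, among the 12496 named genes that averaged 1 CPM or more. These r share the depth and the grouping of the same libraries and carry no test. BMAL1 was most like SAMD8 (r = 0.992), RTKN2 (0.991) and ZNF518B (0.991). BMAL2 was most like STT3A (r = 0.999), ZCCHC10 (0.996) and RNF138 (0.992). CLOCK was most like LYST (r = 0.997), SLC12A2 (0.995) and PRDM15 (0.992), and NPAS2 like CPT2 (0.991), PMM2 (0.981) and ZFYVE28 (0.981). None of the 4 genes was among the 3 most like another, and an r of at least 0.95 was reached by 89 genes for BMAL1, 60 for BMAL2, 63 for CLOCK and 41 for NPAS2.

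Markers of other cell types moved in part with the groups. Of 5 leukocyte markers 2 were tested, and PTPRC was lower in all 3 libraries labelled BMAL1 knockout (log2 fold change -1.43, Benjamini-Hochberg adjusted p = 0.00127, quasi-likelihood test of edgeR). The other, CD14, stood at 0.413 CPM in the control mean and 0.835 CPM in the mean labelled knockout, and the groups overlapped (log2 fold change 0.99, unadjusted p = 0.0593, adjusted p = 0.318 in edgeR). The summed leukocyte markers were at 6.82, 6.84 and 7.32 CPM in the control libraries and 3.00, 3.11 and 3.72 CPM in the others, with PTPRC the most abundant in the mean of either group and CD3E at 0 in all 6. Of 6 epithelial markers 5 were tested, 3 with a positive and 2 with a negative log2 fold change and a median of 0.10. KRT18 was lower (-0.50, adjusted p = 0.00583 in edgeR; 0.0524 without control replicate 2), and KRT8, which overlaps it, was called lower by DESeq2 (-0.29, adjusted p = 0.003) and not by edgeR (-0.28, 0.0507; 0.00662 without knockout replicate 1 and 0.0314 with the GC trend removed, among alternatives from 0.003 to 0.253). KRT7, KRT19 and EPCAM were at 0.10, 0.23 and 1.57 on the log2 scale, and none of these 3 was called by edgeR, DESeq2 or limma-voom. EPCAM was near 0, at 0.125 CPM in the control mean and 0.381 CPM in the mean labelled knockout. Its groups overlapped, and the 95% interval of its log2 fold change ran from -0.34 to 3.48. The summed epithelial markers were at 2990, 3040 and 2900 CPM in the control libraries and 2540, 2480 and 2560 CPM in the others, led by KRT8. Of 7 fibroblast and 4 endothelial markers, 2 and 2 were tested and 0 were called by edgeR, DESeq2 or limma-voom, also 0 at an unadjusted p under 0.05. The collagen gene COL1A1 led the fibroblast markers at 860 ± 77.9 and 859 ± 141 CPM (SD, n = 3 each), DCN and LUM were at 0, and PECAM1 was at most 0.170 CPM in the mean of either group. Of 13 thyroid markers 5 were tested and 0 called by these tools, with 0 higher and 2 lower at an unadjusted p under 0.05 in edgeR, against 9.08% and 7.78% of all genes. The part of these markers in the values of BMAL1 and NPAS2 was not tested.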

How the data were processed

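RNA-seq of 6 libraries was analysed, 3 control and 3 labelled BMAL1 knockout. The authors removed adapter and low-quality reads, mapped the rest to hg38 and deposited raw counts per gene of reads that mapped to a single place, neither normalized nor pooled. The submitters' processing notes name fastp 0.20.1 and HISAT2 2.0.4, and the annotation is not given in the sources used here. Of 22354 loci, 20023 matched GENCODE v44, and 2310 were assembled from reads.

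CPM scaled by TMM, log2 fold changes and two-sided p-values came from edgeR 4.0.16 (R 4.3.3), with its default low-count filter and robust quasi-likelihood fit. The p-values were Benjamini-Hochberg adjusted over the 14860 loci kept, and the threshold was 0.05. RPKM, ratios and exact permutation tests were computed from the same counts. The fits were tested on simulated data. The members and lists were chosen with earlier results of these data known. Named genes are the 4 activators, listed genes past the threshold, a fixed set of loop and bHLH-PAS genes, nearest neighbours and the 3 most similar genes; some listed genes are not reported here. Alternatives were other scalings, filters, a replicate block, DESeq2 1.42.0, limma-voom 3.58.1, equal depth, GC trend removal and leaving out each library. The single-cell, protein and siRNA experiments were not analysed here.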

Additional observations from a re-analysis of the deposited data

How the results depend on the processing

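BMAL1, CLOCK and NPAS2 kept the sign of their log2 fold change in all 15 alternatives, and CLOCK and NPAS2 were called in 0 of them by edgeR, DESeq2 or limma-voom. Leaving out each library in turn gave 0.50 to 0.70 for BMAL1, with an adjusted p (edgeR, Benjamini-Hochberg) under 0.05 in 2 of 6 fits, -0.06 to 0.06 for BMAL2, -0.16 to -0.05 for CLOCK and -0.34 to -0.20 for NPAS2. BMAL2 turned sign with library size only (0.02), without control replicate 3 (0.06) and without knockout replicate 3 (0.03). Genes called numbered 161 higher and 212 lower, and 46 to 293 higher (fewest without control replicate 2, most without knockout replicate 1) and 67 to 340 lower with a library left out. They were 310 and 387 in DESeq2, 102 and 153 in limma-voom, 408 and 746 with the GC trend removed, and 185 and 155 with library size only, where the split between higher and lower turned. The cause of these moves was not tested. Clock genes called were 2 to 4 with a library left out, bHLH-PAS relatives 0 to 3, and genes near the 4 activators 0; of the last, DESeq2 called 1. With the GC trend removed, which was added for these lists after seeing the data, edgeR called 2 of the relatives and 5 of the genes near the activators. Per length by the longest transcript, BMAL2 was 4.68 times BMAL1, CLOCK 6.12 times NPAS2 and BMAL2 1.38 times CLOCK, against 8.31, 8.72 and 1.49. Same-numbered libraries did not deviate together (r = -0.12, -0.0221 and -0.0298), and the main fit did not pair them. Deviations within so few libraries cannot show whether equal numbers mark a shared culture or preparation. The replicate block gave 132 genes higher and 145 lower, a BMAL1 log2 fold change of 0.59 (adjusted p = 0.0222, edgeR), a TEF log2 fold change of -0.50 whose call was lost (adjusted p = 0.0739, edgeR), and paired differences in the log2 ratio of BMAL1 to BMAL2 of 0.60 (exact sign-flip test, p = 0.25, the smallest it can give). Depth limits RORB and the bHLH-PAS genes HIF3A, NPAS3, NPAS4 and SIM1, which were below the filter.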
